A study of Mus musculus with 8 samples.

Results

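The 4 genes Dppa2, Dppa3, Dppa4 and Dppa5a belong to the developmental pluripotency associated group, named for transcripts found in early embryos and embryonic stem cells. Every probe set annotated to these symbols was taken, which gave 5 probe sets, a pair for Dppa2 and a single one for each of the other genes, out of 34945 probe sets with 1 gene symbol for 18193 genes. All 5 passed the filter on low values, as did 17836 genes of the array.

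Expression was measured on 8 single-colour Affymetrix arrays, with 2 arrays in each of 4 groups. The groups were Rex-1 knockout (KO) cells without leukemia inhibitory factor (LIF), KO cells with LIF, J1 cells without LIF and J1 cells with LIF. J1, the control, is a line of wild-type mouse embryonic stem cells. Rex-1 is the zinc finger protein encoded by Zfp42, and the labels write the mutant as Rex-1-/-. LIF is the cytokine that keeps mouse embryonic stem cells undifferentiated through the transcription factor STAT3. All cells grew as a monolayer on gelatin in serum medium, and the extraction text, which is the same for all 8 samples, gives 12 hours without LIF. Labels name J1 as the source of all 8 samples and do not say whether the KO cells are 1 clone or several. For KO cells without LIF the titles and the treatment text both give its absence, but the growth text speaks of LIF being added. The titles were followed. By the design text each group has biological replicates. In the titles a letter r, explained by no label, sets 1 array of a group apart, and it is called the second array here. Nothing says that they came from separate cultures, so p-values measure only the spread between these arrays.

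The proteins of this group do not form a single family. Dppa2 and Dppa4 lie side by side on chromosome 16 and encode SAP-domain chromatin proteins that work as a pair, keep developmental promoters poised and act upstream of the 2-cell-like programme driven by Dux. Dppa3, also called Stella or PGC7, is on chromosome 6 near Nanog. Its product marks primordial germ cells and protects the maternal genome from loss of methylation in the zygote, and in embryonic stem cells it counteracts the maintenance methylation factor Uhrf1. Dppa5a, also called Esg1, is on chromosome 9 and encodes a KH-domain RNA-binding protein of naive stem cells. RefSeq lists the pseudogenes Dppa5b, Dppa5c and Dppa3-ps, and whether the probe sets of Dppa5a and Dppa3 also read these copies was not tested.

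The values are signal intensities as deposited, taken to log2, and all levels and differences below are on that scale unless a signal is named. Array medians ran from 114.2 to 143.5 in signal. The second KO array with LIF had the highest median, and 91.2% of its probe sets lay at a log2 of at least 4, against 85.2% to 87.4% on the other arrays. The 8 embryonic stem cell markers had a mean level of 12.73 to 13.26 on each array, and all 8 averaged at least 8. Zfp42 itself read 14.06 and 14.03 in KO cells without LIF and 14.14 and 14.08 in KO cells with LIF, against 14.15 and 14.33 in J1 cells without LIF and 14.17 and 14.51 in J1 cells with LIF. The 4 KO arrays lay below the 4 J1 arrays, with 14.14 as the highest KO value and 14.15 as the lowest J1 value, and 3.2% of all probe sets were lower in KO without overlap under both conditions. The averaged difference was -0.21 (SE 0.16), limma did not call it (adjusted p = 0.985), and the signal was high on all 8 arrays. The labels do not place this probe set inside or outside the deletion. Outside it the signal checks nothing, so KO below means the arrays labelled as knockout. Socs3, a direct LIF target, read 9.60 and 9.84 in KO cells without LIF and 12.78 and 12.68 in KO cells with LIF. In J1 cells it read 10.60 and 8.51 without LIF and 12.61 and 12.43 with LIF.

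Dppa2 had higher values in KO than in J1 cells, and the other 3 genes had none of this separation. The probe set 1429654_at read 12.79 and 12.97 in KO cells without LIF and 12.83 and 12.99 in KO cells with LIF. It read 12.60 and 12.62 in J1 cells without LIF and 12.54 and 12.59 in J1 cells with LIF. The lowest KO array thus stood above the highest J1 array.

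In signal, this Dppa2 probe set averaged 7575 ± 662.9 in KO cells without LIF and 7704 ± 602.0 in KO cells with LIF, against 6243 ± 68.16 in J1 cells without LIF and 6069 ± 133.1 in J1 cells with LIF (SD, n = 2 each). The difference averaged over LIF conditions was 0.31 (SE 0.15, 95% interval -0.07 to 0.69), or 1.24-fold with an interval of 0.95 to 1.61. Without LIF it was 0.28 (SE 0.22), and with LIF it was 0.34 (SE 0.22). limma did not call the averaged difference (unadjusted p = 0.0927, adjusted p = 0.985 over 43439 probe sets). In bulk RNA, fewer cells that express a gene and less RNA per cell cannot be told apart.

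The second Dppa2 probe set, 1453223_s_at, pointed the same way and overlapped more. It read 13.43 and 13.24 in KO cells without LIF and 13.43 and 13.12 in KO cells with LIF, against 13.16 and 13.03 in J1 cells without LIF and 13.14 and 12.91 in J1 cells with LIF. The genotypes were apart without LIF, and with LIF the second KO array lay just under the first J1 array. Its averaged difference was 0.25 (SE 0.17, 95% interval -0.18 to 0.67, limma adjusted p = 0.985). Leaving out each array in turn moved its difference to between 0.15 and 0.34 without LIF, where it was 0.24, and to between 0.09 and 0.40 with LIF, where it was 0.25. The lowest values came without the first KO array, and with arrays centred on their medians the difference with LIF was 0.16. The suffix s marks a probe set whose probes may match more than 1 transcript.

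Both Dppa2 probe sets kept their direction when first arrays were compared with first arrays and second with second. For 1429654_at the KO minus J1 difference was 0.20 without LIF and 0.28 with LIF in the first arrays, and 0.35 and 0.40 in the second arrays. For 1453223_s_at it was 0.28 and 0.29 in the first arrays and 0.21 and 0.21 in the second arrays. The probe sets differed in the other direction of the data, since second minus first lay between 0.02 and 0.18 in the 4 groups for 1429654_at and between -0.31 and -0.13 for 1453223_s_at.

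Separation of the arrays was common over the whole array and has to be read against that. Of the 5 DPPA probe sets, 1 was higher in KO without overlap both with and without LIF, against 3.57% of all 43439 probe sets. Without LIF alone 2 of 5 did not overlap and were higher in KO, against 15.9% of all, and with LIF 1 of 5 did, against 15.5%. limma called 0 of the 5 in each of the 3 genotype comparisons, and it called 0% of all probe sets in each of them. At an unadjusted p under 0.05 the counts in this fit were 0 of 5 in all 3, against 5.02% of all probe sets with LIF, 3.68% without LIF and 5.27% on average. With a trended, robust prior Dppa2 (1429654_at) had an unadjusted p of 0.0117 on average (adjusted p = 0.958) and 0.0373 with LIF (adjusted p = 0.999), and with a mean level of at least 8 as the filter it had 0.024 on average (adjusted p = 0.69), so it was called in neither.

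**Figure D1:**
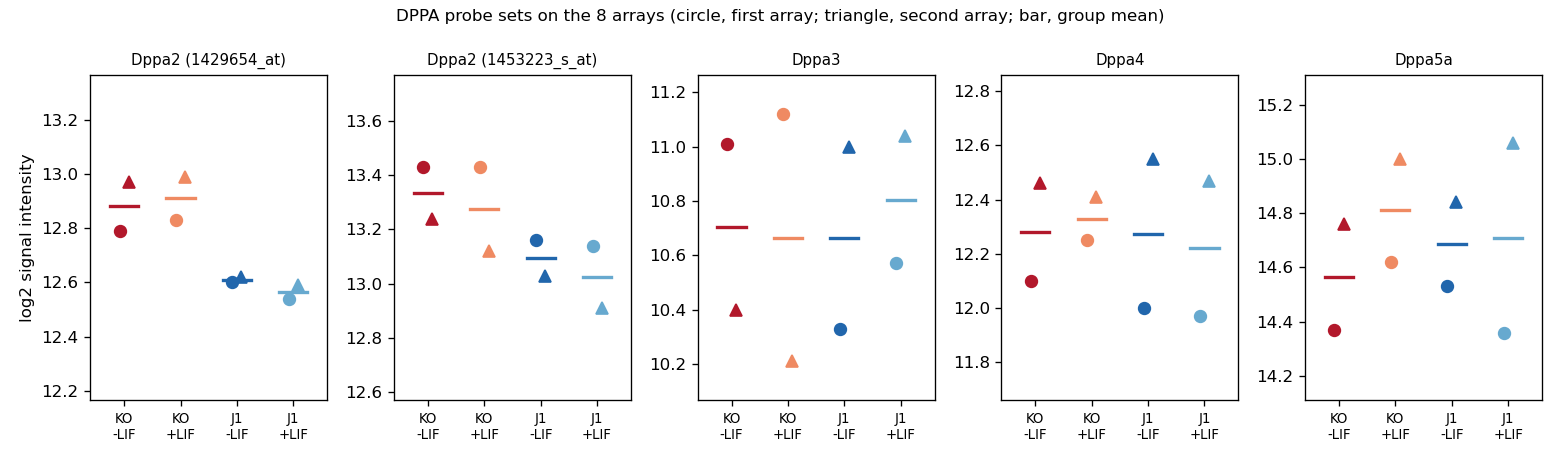
Log2 signal intensity (vertical axis, each panel spanning the same range of log2 units) of the 5 DPPA probe sets in the 4 groups, with circles for the first array, triangles for the second and bars for the group mean (n = 2). Dppa2 (1429654_at) lies at 12.79 to 12.99 in KO cells and 12.54 to 12.62 in J1 cells, while the Dppa3, Dppa4 and Dppa5a groups overlap.

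Dppa4, the partner of Dppa2, did not share its genotype pattern. Its probe set 1429597_at read 12.10 and 12.46 in KO cells without LIF and 12.25 and 12.41 in KO cells with LIF, against 12.00 and 12.55 in J1 cells without LIF and 11.97 and 12.47 in J1 cells with LIF. The genotypes overlapped under both conditions, with the J1 arrays holding both the lowest and the highest value.

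The averaged KO minus J1 difference of Dppa4 was 0.06 (SE 0.23, 95% interval -0.51 to 0.62), which allows a fold of 0.70 to 1.54. It was 0.0037 without LIF and 0.11 with LIF. Its sign was not stable, as the averaged difference was -0.02 with arrays centred on their medians. Over the 8 arrays Dppa4 correlated with Dppa2 at r = 0.35 for 1429654_at and r = -0.42 for 1453223_s_at. These are descriptions of 8 arrays that differ in group and array position, and they were not tested.

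Dppa4 moved with array position, being higher in the second array of all 4 groups, by 0.35 in KO cells without LIF, 0.16 in KO cells with LIF, 0.55 in J1 cells without LIF and 0.50 in J1 cells with LIF. Its residual SD of 0.30 between replicates lay above that of 88.2% of the 1062 probe sets with a mean level of 12 to 13, whose median was 0.15. For Dppa2 (1429654_at), in the same range of levels, it was 0.09, above 16.4% of them.

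Dppa5a gave a bright signal on every array and differed between replicates more than between groups. Its probe set 1416552_at read 14.37 and 14.76 in KO cells without LIF and 14.62 and 15.00 in KO cells with LIF, against 14.53 and 14.84 in J1 cells without LIF and 14.36 and 15.06 in J1 cells with LIF. As signal, the group means were 24470 ± 4628 in KO cells without LIF, 28990 ± 5354 in KO cells with LIF, 26510 ± 4011 in J1 cells without LIF and 27580 ± 9231 in J1 cells with LIF (SD, n = 2 each). The averaged genotype difference was -0.0092 (SE 0.24, 95% interval -0.61 to 0.60), and 0.11 with quantile normalization, which turned its sign.

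The second array was the higher one for Dppa5a in each group, by 0.39 and 0.38 in KO cells without and with LIF and by 0.31 and 0.70 in J1 cells without and with LIF. Dppa4 and Dppa5a, which lie on different chromosomes, correlated at r = 0.86 over the 8 arrays, while Dppa5a and Dppa2 (1453223_s_at) stood at r = -0.64. A second array that was higher in all 4 groups was seen in 21.1% of the 14892 probe sets with a mean level of at least 8, and one that was lower in all 4 also in 21.1%, so that this behaviour was frequent. Some other measures moved with array position too. For the Gapdh control the log2 ratio of 3' to 5' signal was lower on second arrays, with second minus first between -0.157 and -0.061 over the 4 groups. For the beta-actin control it was higher there in 3 groups, with second minus first of 0.010 in KO cells without LIF, 0.051 in KO cells with LIF and 0.118 in J1 cells with LIF, and -0.003 in J1 cells without LIF. The mean of 10 fibroblast or feeder markers was lower on the second array in each group. Their part in these differences was not tested.

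**Figure D2:**
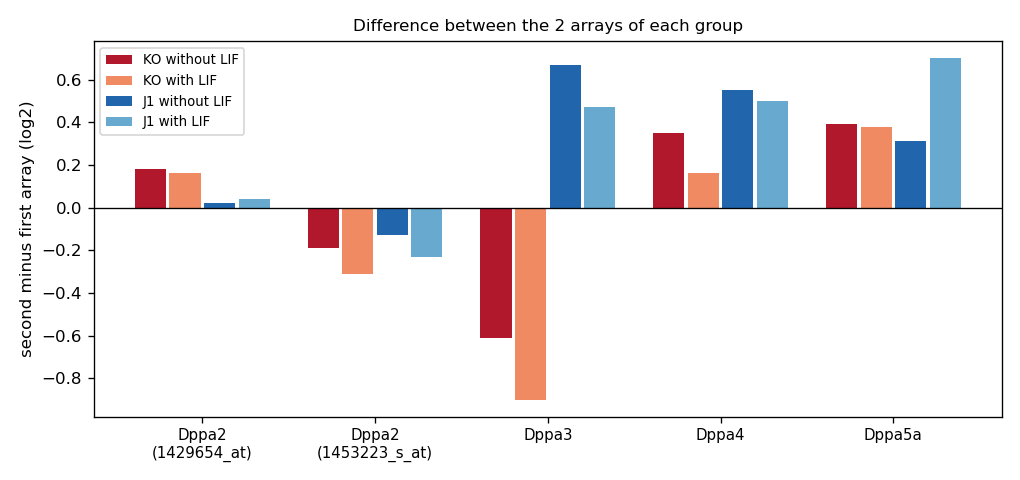
Second minus first array (vertical axis, log2 units) for each DPPA probe set, with 1 bar per group and bars starting at 0. Dppa4 and Dppa5a have 4 positive bars, Dppa2 (1453223_s_at) has 4 negative ones, and Dppa3 has negative bars in both KO groups and positive bars in both J1 groups.

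Dppa3 had the widest spread of the 4 genes, and its replicates were split in opposite ways in the 2 lines. Its probe set 1424295_at read 11.01 and 10.40 in KO cells without LIF and 11.12 and 10.21 in KO cells with LIF, against 10.33 and 11.00 in J1 cells without LIF and 10.57 and 11.04 in J1 cells with LIF. The first array was the high one in both KO groups, and the second was the high one in both J1 groups. The 4 high arrays lay between 11.00 and 11.12, and the 4 low arrays between 10.21 and 10.57.

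Because of this split the group means of Dppa3 were close, at 10.70 in KO cells without LIF, 10.67 in KO cells with LIF, 10.66 in J1 cells without LIF and 10.80 in J1 cells with LIF. The averaged KO minus J1 difference was -0.05 (SE 0.32, 95% interval -0.84 to 0.74, limma adjusted p = 0.999), which allows a fold of 0.56 to 1.68. Among first arrays alone KO minus J1 was 0.68 without LIF and 0.55 with LIF. Among second arrays alone it was -0.60 without LIF and -0.82 with LIF. The mean over both array positions is thus made of differences of opposite sign, and no label says whether array position stands for a culture, a day or a rerun.

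The residual SD of Dppa3 was 0.48, above that of 94.8% of the 2841 probe sets with a mean level of 10 to 11, whose median was 0.19. The crossing was looked for in other probe sets after it had been seen in Dppa3, with a cut of 0.4 chosen to hold it. Second arrays lower by at least 0.4 in both KO groups and higher by at least 0.4 in both J1 groups were found in 14 of the 14892 probe sets with a mean level of at least 8, or 0.094%, Dppa3 among them. The mirror image was found in 9, or 0.0604%. Over all 43439 probe sets, dim ones included, the crossing was found in 323, or 0.744%, and the mirror image in 494, or 1.14%. No test attaches to these counts, since the pattern was picked from the data.

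Of the 14 probe sets, 11 had 1 gene symbol, for 10 genes, which were Enpp3, Dppa3, Tfap2c, Aass, Pdpk1, Urgcp, Srsf2, Rhox6, Rhox9 and Rbm18. Both probe sets of Tfap2c, the AP-2 gamma factor of primordial germ cells, were among them. Tfap2c (1448977_at) read 9.64 and 9.03 in KO cells without LIF and 10.27 and 9.44 in KO cells with LIF, against 8.62 and 9.49 in J1 cells without LIF and 9.38 and 10.18 in J1 cells with LIF. The homeobox genes Rhox6 and Rhox9, which lie in 1 cluster on the X chromosome and are expressed in placenta and germ cells, also crossed. For Rhox6 the second array was lower by -1.08 and -1.17 in KO cells without and with LIF and higher by 0.42 and 0.68 in J1 cells without and with LIF. For Rhox9 the values were -0.93 and -1.77 in KO cells and 0.71 and 0.97 in J1 cells. Rhox6 read 9.32 and 8.24 in KO cells without LIF and 9.43 and 8.26 in KO cells with LIF. In J1 cells Rhox6 read 7.65 and 8.08 without LIF and 7.29 and 7.98 with LIF. All its KO arrays thus lay above its J1 arrays, and unlike for Dppa3 its genotype difference kept its sign at both array positions. Enpp3, an ectonucleotidase, crossed by -0.62 and -0.67 in KO cells and 0.57 and 0.44 in J1 cells. Of the 10 measured on the germ cell list, Tfap2c was the only 1 to meet the cut. Ifitm3 and Prdm1, the latter at a mean level of 7.76, had the same crossing order without meeting it. Ifitm3 read 12.83 and 12.61 in KO cells without LIF and 13.16 and 12.96 in KO cells with LIF. In J1 cells it read 12.63 and 13.07 without LIF and 12.90 and 13.33 with LIF. The remaining members of the list did not have this order. Dazl, a germ cell RNA-binding protein, read 8.74 and 9.46 in KO cells without LIF and 8.77 and 9.16 in KO cells with LIF, with the second array as the high one. It read 8.57 and 8.61 in J1 cells without LIF and 8.43 and 8.19 in J1 cells with LIF.

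**Figure D3:**
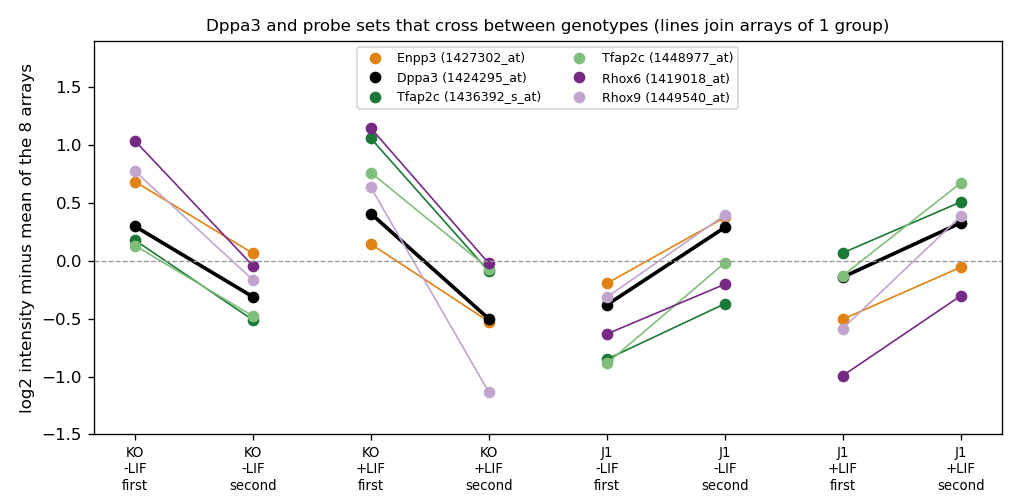
Log2 intensity minus each probe set's own mean over the 8 arrays (vertical axis) for Dppa3 and 5 probe sets of Tfap2c, Rhox6, Rhox9 and Enpp3 chosen because they cross, with lines joining the arrays of 1 group. All lines go down from first to second array in the KO groups and up in the J1 groups.

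No LIF difference was called in any of the 4 genes, and the intervals were wide. The averaged differences, without minus with LIF, were 0.008 (SE 0.15, 95% interval -0.37 to 0.39) for Dppa2 by 1429654_at and 0.06 (SE 0.17, interval -0.36 to 0.49) by 1453223_s_at. They were -0.05 (SE 0.32, interval -0.85 to 0.74) for Dppa3, 0.0052 (SE 0.23, interval -0.56 to 0.57) for Dppa4 and -0.13 (SE 0.24, interval -0.74 to 0.47) for Dppa5a. The Dppa5a value was 0.02 with quantile normalization. For Dppa2 (1429654_at) the interval corresponds to a fold of 0.77 to 1.31, the narrowest of the 5, and for Dppa3 to 0.56 to 1.67.

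Taken line by line, Dppa5a had a difference of -0.25 (SE 0.34) in KO cells, which lay between -0.44 and -0.05 on leaving out each array in turn, and -0.02 (SE 0.34) in J1 cells. Dppa3 had 0.04 (SE 0.45) in KO cells and -0.14 (SE 0.45) in J1 cells. limma called 0 of the 5 probe sets in KO cells, in J1 cells and on average, as it called 0% of all probe sets in each of these comparisons. The only pair of LIF groups without overlap was that of Dppa2 (1429654_at) in J1 cells, which was higher without LIF by 0.04, and 13.2% of all probe sets were higher without overlap there. On the same arrays Socs3 had an averaged difference of -2.99 (SE 0.47), which limma did not call either (adjusted p = 0.701). A difference that was not called in this fit thus does not show that a gene was unchanged.

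The difference between the lines in their LIF response was -0.07 (SE 0.31) and -0.0021 (SE 0.34) for the Dppa2 probe sets, 0.18 (SE 0.64) for Dppa3, -0.10 (SE 0.46) for Dppa4 and -0.22 (SE 0.49) for Dppa5a. 0 of the 5 were called by limma, against 0% of all probe sets. The widest interval was that of Dppa3, from -1.41 to 1.77.

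**Figure D4:**
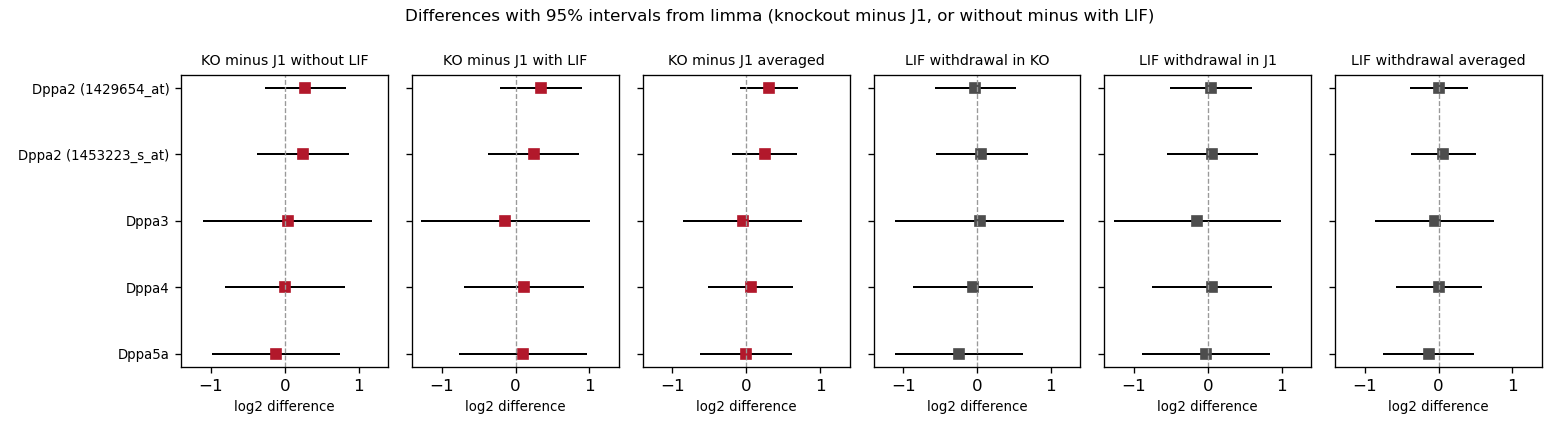
Log2 differences (horizontal axis) of the 5 DPPA probe sets with 95% intervals from limma over 8 arrays, knockout minus J1 in the 3 left panels and without minus with LIF in the 3 right panels. Every interval spans 0, and the Dppa2 squares sit at 0.24 to 0.34 in the genotype panels.

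The genes whose values followed each member most closely over the 8 arrays were found among 13633 probe sets with 1 symbol and a mean level of at least 8, by Pearson r. For Dppa2 (1429654_at) they were Rbpj, the DNA-binding effector of Notch, at r = 0.990, Usp17la, a deubiquitinase of the 2-cell-like programme, at r = 0.977 and Dusp27 at r = 0.974. Rbpj read 12.30 and 12.50 in KO cells without LIF and 12.34 and 12.44 in KO cells with LIF, against 12.06 and 12.07 in J1 cells without LIF and 11.98 and 12.00 in J1 cells with LIF. For the other Dppa2 probe set they were Taf1d (0.988), Abcb1a (0.986) and Rab5a (0.985), so the pair of Dppa2 probe sets, at r = 0.46 with each other, had different closest genes. For each member the closest genes were picked as the highest of 13633 over 8 arrays, so a high r can come from the picking alone. No test attaches to these values.

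For Dppa3 the closest were Fubp1 at r = 0.962, Fastkd2 at r = 0.962 and Tst, a mitochondrial sulfurtransferase, at r = 0.956. Tst had the crossing order of Dppa3, with 9.67 and 9.27 in KO cells without LIF and 9.86 and 9.11 in KO cells with LIF, against 9.18 and 9.52 in J1 cells without LIF and 9.33 and 9.60 in J1 cells with LIF. For Dppa4 they were Fundc1 (0.990), Zfand6 (0.985) and Pmm1 (0.985). For Dppa5a they were Phf5a (0.992), the chaperone Hsp90aa1 (0.990) and the chaperonin subunit Cct5 (0.989). The Dppa4 and Dppa5a companions were higher in the second array of each group, as these genes were.

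The genomic neighbours were taken as the nearest 3 protein-coding genes on each side of each member in the RefSeq table, which named 18 other genes, 15 of them measured. Their averaged KO minus J1 differences ran from -0.69 to 0.55 with a median of 0.11, with 11 above 0 and 4 below. Only Ooep and Cgas, 2 genes on the same side of Dppa5a, were higher in KO without overlap under both conditions, against 3.57% of all probe sets. Ooep, the gene next to Dppa5a and a relative of it, read 11.11 and 10.99 in KO cells without LIF and 11.08 and 11.00 in KO cells with LIF. It read 10.86 and 10.45 in J1 cells without LIF and 10.97 and 10.60 in J1 cells with LIF. Its groups were apart under both conditions, with a difference of 0.32 (SE 0.19) that limma did not call (adjusted p = 0.985). Cgas, a DNA sensor, had 0.50 (SE 0.16), and Gsta2, on the other side of Dppa5a, had 0.55 (SE 0.63). Both ends of the range came from dim probe sets, Gsta2 at a mean level of 5.9 and Omt2b, with -0.69 (SE 0.51), at 3.68. Nectin3, on the far side of Dppa4, had -0.14 (SE 0.23). Morc1, which follows Dppa2 and encodes a germline repressor, had a difference of 0.05 (SE 0.18). It read 12.14 and 11.87 in KO cells without LIF and 12.54 and 12.13 in KO cells with LIF. In J1 cells it read 11.99 and 12.14 without LIF and 12.11 and 12.24 with LIF. Morc1 thus had the crossing order of Dppa3 without meeting the cut, and its averaged difference is made of differences of opposite sign. Gdf3 and Nanog, which flank Dppa3, had -0.09 (SE 0.19) and 0.30 (SE 0.22), and neither had the crossing of Dppa3.

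The gene lists tied to the members were described beside the 17836 genes measured, whose median difference was 0.01 between genotypes and -0.01 between LIF conditions. Each gene stands by its brightest probe set, and limma called 0 members of these 5 lists in either averaged comparison. The 2-cell-like genes downstream of Dppa2, Dppa4 and Dux had 6 of 13 members measured, with a median KO minus J1 difference of 1.04, 5 above 0 and 3 higher in KO without overlap under both conditions, against 3.57% of all probe sets. Earlier results of these data had already shown this list as higher, so its direction is not independent evidence. Usp17la read 9.09 and 9.94 in KO cells without LIF and 9.17 and 9.85 in KO cells with LIF, against 7.98 and 8.43 in J1 cells without LIF and 7.41 and 8.16 in J1 cells with LIF (difference 1.52, SE 0.33, adjusted p = 0.719). It was the only member with a mean level of at least 8. The probe set listed as Duxf3, the gene of Dux, had a difference of -0.03 (SE 0.29) at a mean level of 6.02. On LIF withdrawal the list had a median of 0.24, with 5 above 0 and 1 below.

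The DNA methylation factors around Dppa3 had a median genotype difference of -0.04 over the 9 of 10 genes measured, with 3 above 0 and 6 below. Dnmt3a, a de novo methyltransferase, had -0.55 (SE 0.16, adjusted p = 0.871), Dnmt3b had -0.33 (SE 0.27) and the methylcytosine oxidase Tet2 had 0.27 (SE 0.25). Dnmt3b read 13.11 and 12.48 in KO cells without LIF and 12.98 and 12.40 in KO cells with LIF. In J1 cells it read 13.03 and 13.56 without LIF and 12.66 and 13.05 with LIF. It thus had the crossing order of Dppa3, and its averaged genotype difference is made of differences of opposite sign. Uhrf1, which DPPA3 binds, had -0.11 (SE 0.17). On LIF withdrawal the list had a median of 0.05, with 7 above 0 and 2 below. The values were 0.65 (SE 0.16) for Dnmt3a, -0.30 (SE 0.17) for Tet1 and 0.27 (SE 0.27) for Dnmt3b.

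The primordial germ cell genes, among which Dppa3 is a classic marker, had 10 of 11 measured and a median genotype difference of 0.20, with 7 above 0 and 3 below. The values were 0.58 (SE 0.23) for Dazl, 0.43 (SE 0.22) for Ddx4, both germ cell RNA-binding proteins, and 0.40 (SE 0.26) for the receptor Kit. On LIF withdrawal the median was -0.24, with 4 above 0 and 6 below, and the values were -0.78 (SE 0.34) for Tfap2c, -0.44 (SE 0.26) for Kit and -0.30 (SE 0.20) for Ifitm3.

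The KH-domain relatives of Dppa5a and their maternal complex partners had 7 of 8 measured, of which Ooep and Khdc3 reached a mean level of 8. The median of the 7 was -0.02 between genotypes, with 3 above 0 and 4 below, and -0.28 on LIF withdrawal, with 2 above 0 and 5 below. Khdc3, also called Filia, read 9.11 and 9.32 in KO cells without LIF against 9.97 and 9.92 in KO cells with LIF, and 9.33 and 9.21 in J1 cells without LIF against 9.74 and 10.13 in J1 cells with LIF. It was lower without LIF on every array of both lines, the only 1 of the 7 to be so, against 2.59% of all probe sets. The difference was -0.70 (SE 0.17) on average, and limma did not call it (adjusted p = 1.0). Ooep had -0.06 (SE 0.19) and Dppa5a, as above, -0.13.

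The pluripotency factors had 17 of 18 measured, with a median of 0.17 between genotypes, 11 above 0 and 6 below. Tbx3 had 0.87 (SE 0.20, adjusted p = 0.794), Fbxo15 0.46 (SE 0.33) and Nr0b1 0.35 (SE 0.25). On LIF withdrawal 15 of the 17 were below 0, with a median of -0.15, and the values were -0.85 (SE 0.24) for Klf4, -0.58 (SE 0.33) for Fbxo15 and -0.46 (SE 0.16) for Tfcp2l1. On the same comparison the 8 primed epiblast markers had a median of 0.52, with 6 above 0 and 3 higher without LIF without overlap in both lines, against 2.2% of all probe sets. Between genotypes their median was -0.24, with 7 below 0. Their part in these differences was not tested.

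**Figure D5:**
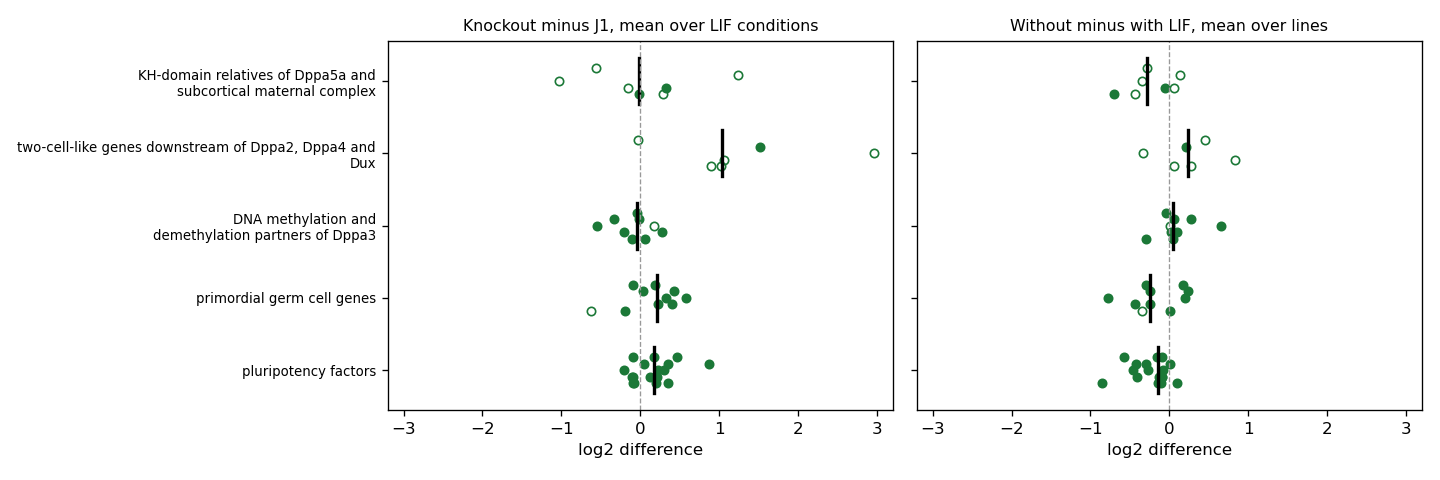
Log2 differences (horizontal axis) of the genes of 5 lists tied to the DPPA genes, knockout minus J1 on the left and without minus with LIF on the right, with filled points for genes of mean log2 of at least 8, open points for dimmer genes and black bars for list medians. The 2-cell-like list has its median at 1.04 on the left, mostly from open points, and the pluripotency list has 15 of 17 points below 0 on the right.

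By the mean of each list, markers of other cell types were low beside those of stem cells, and some moved with genotype or array position. The 8 primitive endoderm markers averaged 6.31 and 6.92 in KO cells without LIF and 6.34 and 6.95 in KO cells with LIF, against 6.17 and 6.65 in J1 cells without LIF and 5.94 and 6.35 in J1 cells with LIF. At each array position KO was thus the higher one, as for Dppa2, although the genotypes overlapped, and 1 of the 8 markers reached a mean level of 8. Whether this bears on Dppa2 was not tested. The 8 trophoblast markers averaged 5.67 to 6.55 over the arrays, and none reached 8. The 8 primed epiblast markers averaged 7.57 to 8.70.

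The 10 fibroblast or feeder markers averaged 6.86 and 6.59 in KO cells without LIF and 7.08 and 6.49 in KO cells with LIF, against 7.93 and 6.08 in J1 cells without LIF and 7.76 and 6.25 in J1 cells with LIF. They were highest on the first J1 arrays, where Dppa3 and Dppa4 were low, and 3 of the 10 reached a mean level of 8. Dppa3 was also low on the second KO arrays, at 10.40 without LIF and 10.21 with LIF, where these markers averaged 6.59 and 6.49. Single markers were bright on the first J1 arrays. Acta2 read 12.24 without LIF and 12.17 with LIF on the first J1 arrays, against 9.46 and 9.93 on the second. Tagln read 12.12 and 12.24 on the first J1 arrays, against 6.32 and 7.47 on the second. Lum, at a mean level of 5.89, went the other way, with 5.35 and 5.71 on the first J1 arrays against 7.20 and 6.06 on the second. Thy1 with LIF and S100a4 without LIF were also higher on the second J1 array. The other markers of the list were lower on the second J1 array under both conditions. Whether these markers bear on Dppa3 and Dppa4 was not tested.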

How the data were processed

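The authors deposited 1 intensity, on a linear scale, for each probe set and array. GCRMA stands in the submitters' processing notes without a version. Trimmed by 2% at either end, every array had a mean of 500.0, and the step that set it is not stated. No detection call was used. The number of arrays limits the precision. Of 45101 probe sets, 64 controls were left out, and 43439 had a log2 of at least 4 on at least 2 arrays. Group means of the log2 values were estimated in a single limma 3.58.1 model (R 4.3.3) of the 8 arrays, with eBayes untrended and 7 contrasts. Calls were made at a Benjamini-Hochberg adjusted p under 0.05 over all probe sets. The code of the fit was checked on simulated data with independent noise and planted changes larger than any DPPA difference. That check does not cover differences of the size seen here. Symbols came from the platform annotation, and chromosomes and neighbours from RefSeq GRCm38.p6, with no coordinates printed since the arrays name no build. No sequence of the members was used here.

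Members, lists and tests were chosen with earlier results of these data known. Named genes were the members, Zfp42, Socs3, per list the 3 of largest averaged difference at a mean log2 of at least 8, nearest neighbours and the 3 most alike. Uhrf1, Duxf3, Cgas, Aass, Pdpk1, Urgcp, Srsf2, Rbm18, Rhox6, Rhox9, Enpp3 and Tfap2c among crossing genes were added after their values were seen. Prdm1, Sox2, Usp7, Omt2b, Acta2, Tagln, Lum, Thy1 and S100a4 were added in the same way. Alternatives covered filter, scaling, pseudocount, prior, arrays fitted, block and each array left out. Figures were drawn with matplotlib 3.10.9.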

Additional observations from a re-analysis of the deposited data

How the results depend on the processing

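limma called 0 of the 5 probe sets under each alternative run, and the lowest adjusted p was 0.17. Of 615 alternative values for the 35 member differences, 536 kept their direction and 79, in 28 of these differences, turned it. The genotype differences of both Dppa2 probe sets kept a positive sign in each setting, between 0.19 and 0.42 for 1429654_at and between 0.09 and 0.40 for 1453223_s_at in the fits that left out 1 array, and none of the turned values was called. The array letter was not taken as a pairing, since no label gives it that meaning and second minus first correlated between groups at 0.0496 to 0.198 over all probe sets, with 2 of the 6 group pairs under 0.1. Over the 14892 whose mean log2 reached 8, as all 5 DPPA probe sets did, it correlated at 0.236 to 0.638, so whether the letter pairs the arrays is not settled. With the letter as a replicate block, the averaged Dppa2 (1429654_at) difference was 0.31 (SE 0.12, adjusted p = 0.699). With the block and a trended, robust prior, chosen after seeing the data, its adjusted p was 0.17, and 71 probe sets of the array were called on average between genotypes, 4 with LIF, 6 without LIF and 18 on average for LIF, against 0 in each of these without the block and the prior, and 1 on average between genotypes with the prior alone. With the block and a mean log2 of at least 8, 23, 3, 4 and 0 of 14892 were called.

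With arrays centred on their medians the difference turned to -0.02 for Dppa3 and -0.06 for Dppa4 between genotypes without LIF, -0.02 for Dppa4 on average, 0.01 for Dppa5a on LIF withdrawal in J1, 0.04 for Dppa2 (1429654_at) and 0.02 for Dppa4 in KO, and 0.03 for the Dppa2 (1453223_s_at) interaction. With quantile normalization it turned to 0.10 without LIF and 0.11 on average for Dppa5a between genotypes, 0.03 in J1, 0.0089 in KO and 0.02 on average for Dppa5a on LIF withdrawal, 0.05 for Dppa2 (1429654_at) and -0.0001 for Dppa3 in KO, and 0.09 for the Dppa2 (1453223_s_at) interaction.

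Leaving out each array in turn gave these ranges where the sign turned, with the lone array assumed to vary like the others. Between genotypes with LIF they were -0.59 to 0.31 for Dppa3, -0.14 to 0.36 for Dppa4 and -0.25 to 0.45 for Dppa5a. Without LIF they were -0.30 to 0.37, -0.27 to 0.28 and -0.31 to 0.07 in the same order of genes, and on average -0.28 to 0.18, -0.08 to 0.19 and -0.18 to 0.16. On LIF withdrawal in KO they were -0.11 to 0.06 for Dppa2 (1429654_at), -0.09 to 0.22 for 1453223_s_at, -0.42 to 0.49 for Dppa3 and -0.22 to 0.13 for Dppa4. In J1 they were -0.05 to 0.18 for 1453223_s_at, -0.47 to 0.19 for Dppa3, -0.22 to 0.33 for Dppa4 and -0.37 to 0.32 for Dppa5a. For LIF on average they were -0.04 to 0.05 and -0.01 to 0.14 for the Dppa2 probe sets, -0.28 to 0.17 for Dppa3, -0.13 to 0.14 for Dppa4 and -0.31 to 0.04 for Dppa5a. For the interaction they were -0.16 to 0.02, -0.16 to 0.15, -0.28 to 0.63, -0.38 to 0.17 and -0.57 to 0.13 in that order. The cause of these turns was not tested.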
